A study of Homo sapiens with 12 samples.

Results

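Shared STAT5B summits were examined in 4 human T cell acute lymphoblastic leukemia (T-ALL) cell lines with high tyrosine-phosphorylated STAT5 (pY-STAT5), namely DND-41, HSB-2, SUP-T13, and KOPT-K1. A summit is the position of highest enrichment in a ChIP-Seq peak. Members were chosen by position: an autosomal summit was a member when a summit of at least 1 other of these 4 lines lay within 200 bp. This rule took 482 of the 15754 autosomal summits of the 4 lines, and 23569 were listed over all 6 lines of the series. Joined by gaps of at most 200 bp, the 482 summits formed 237 loci.
The study sequenced chromatin precipitated with an antibody against STAT5B from each line, with an input library for each, and the lines LOUCY and JURKAT served as T-ALL lines with low pY-STAT5. The labels call all 6 lines precursor T cells of WT genotype and name no treatment. In the paper, KOPT-K1 carries a STAT5B driver mutation on both alleles and DND-41 carries mutations that activate IL-7 receptor signaling, neither of which the WT label shows. There was 1 STAT5B library per line and no replicate, so differences between lines cannot be told apart from differences between libraries. Sequencing depth is unknown because read counts are not part of the lists. Intervals given with shares are exact (Clopper-Pearson) 95% binomial intervals that cover counting error only. They treat summits as independent, although summits of different lines at 1 locus are not, so intervals for shared summits pooled over lines are too narrow.

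STAT5 proteins are phosphorylated by JAK kinases downstream of cytokine receptors such as the IL-7 receptor, form dimers, and enter the nucleus. The dimers recognize a palindrome known as the GAS element, written TTCNNNGAA. In developing T cells this pathway is known for survival and proliferation signals, and its activation recurs in T-ALL.

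The reference sequences below are those of 8 of the 12 strongest named loci that held TTCNNNGAA within 50 bp of a summit, because they show the element near shared summits. They are examples and do not stand for the rest of the 12. At *EMB* only the DND-41 summit had it within 50 bp. Loci were ranked by the second highest −log10 q among their lines, so that a locus ranked high only when at least 2 lists supported it. Each is named by the protein-coding gene that holds it or has the nearest start site, runs 5′ to 3′ on the plus strand of GRCh38, and has the palindrome nearest to the locus center in capitals with 30 bases on either side.
CAMKMT chr2:44674586-44674654: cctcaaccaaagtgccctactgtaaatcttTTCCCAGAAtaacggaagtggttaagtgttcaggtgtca
GAD1 chr2:170843871-170843939: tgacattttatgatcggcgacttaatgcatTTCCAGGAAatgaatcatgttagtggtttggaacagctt
LRP1B chr2:141283926-141283994: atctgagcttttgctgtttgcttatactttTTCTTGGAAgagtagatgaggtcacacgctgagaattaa
MTHFD2 chr2:74206312-74206380: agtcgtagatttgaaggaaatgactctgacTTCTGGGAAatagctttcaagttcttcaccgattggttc
PTPN4 chr2:119929628-119929696: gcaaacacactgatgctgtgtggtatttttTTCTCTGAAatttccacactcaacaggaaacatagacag
RPRM chr2:153176976-153177044: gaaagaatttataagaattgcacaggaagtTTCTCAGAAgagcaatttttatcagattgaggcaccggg
EMB chr5:49646101-49646169: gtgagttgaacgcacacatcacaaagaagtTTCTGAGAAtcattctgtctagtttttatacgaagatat
HNRNPA3 chr2:176826475-176826543: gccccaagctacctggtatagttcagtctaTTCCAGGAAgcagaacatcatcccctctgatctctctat
For comparison, the 3 strongest loci without the palindrome and outside annotated untranslated regions are given with 30 bases on either side of the center. They lay 691069 bp, 1889929 bp, and 195357 bp from the nearest protein-coding start site, in the order printed.
near H3-7 chr1:143214694-143214754: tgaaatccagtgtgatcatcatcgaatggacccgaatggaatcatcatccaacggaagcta
near ZNF37A chr10:39986473-39986533: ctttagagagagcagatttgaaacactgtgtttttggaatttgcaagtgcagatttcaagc
near ENSG00000284209 chr16:34576437-34576497: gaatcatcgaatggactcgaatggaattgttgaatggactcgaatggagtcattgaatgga

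Sharing was rare in every line. Of 2405 autosomal summits in KOPT-K1, 32 were shared (1.33%), as were 189 of 5957 in DND-41 (3.17%), 145 of 3034 in HSB-2 (4.78%), and 116 of 4358 in SUP-T13 (2.66%). These shares are the rule itself and carry no test. Of the 237 loci, 229 had summits of 2 lines, 8 had summits of 3 lines, and 0 had summits of all 4. Chromosome 1 held 159 loci and chromosome 2 held 70, whereas chromosome 10 held 4 and chromosomes 3, 5, 16, and 17 held 1 each. The shared part of all summits was 3.15% (2.82% to 3.51%) on chromosome 1, 3.73% (3.16% to 4.37%) on chromosome 2, and 16 of 1684 (0.544% to 1.54%) on the other autosomes. Unshared summits lay on chromosomes 1 and 2 in 35.8% of cases in KOPT-K1 and in 98.6% to 99.3% in the other lines. Shared summits lay there in 84.4% in KOPT-K1 and in 96.6% to 97.9% in the others. The pooled share on the other autosomes thus rests mostly on KOPT-K1 summits, and shares by line and chromosome were not computed.
At the limit of the rule, 28 members had their nearest partner in the last 20 bp inside it, and their median fold enrichment was 2.11 (median −log10 q 2.70). The 30 summits with a partner up to 20 bp beyond it had medians of 2.18 and 2.91. A palindrome lay at 1 of these 28 members and at 0 of the 30 summits outside.

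DND-41 and HSB-2 formed the largest pair, with 98 loci of these lines alone, followed by DND-41 and SUP-T13 with 70 and HSB-2 and SUP-T13 with 34. KOPT-K1 shared 14 loci with DND-41 alone, 7 with SUP-T13 alone, and 6 with HSB-2 alone. To see how many matches the local density of summits gives, 1 list of each pair was moved by 2, 5, 10, and 20 kb to either side, and matches were counted again at each of the 8 shifts. Between DND-41 and HSB-2, 104 summits matched, which is 1.75% of the DND-41 and 3.43% of the HSB-2 summits, against 30 to 58 after shifting. Between DND-41 and SUP-T13, 74 matched against 24 to 40, and between HSB-2 and SUP-T13, 38 against 9 to 21. KOPT-K1 had 18 matches with DND-41 against 0 to 5, and 9 each with HSB-2 and SUP-T13 against 0 to 2. Summed over the 6 pairs, 252 matches were observed and 97.6 were left on average after shifting, a ratio of 2.58. The count therefore exceeded every shifted count in each of the 6 pairs, while a sizable part of it was also reached at shifted positions.
Pairs with a low pY-STAT5 line exceeded their shifts as well. HSB-2 matched LOUCY at 47 summits against 6 to 15, and SUP-T13 matched LOUCY at 57 against 11 to 24. The ratio of observed to mean shifted matches was between 2.18 and 14.4 in the 6 high pY-STAT5 pairs and between 1.42 and 10.7 in the 8 pairs of a high with a low line, and it was 2.70 between LOUCY and JURKAT. Sharing above the shifted level was thus not limited to lines with high pY-STAT5.

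Matches were also counted by presence of the palindrome. Among high pY-STAT5 pairs, both summits held TTCNNNGAA in 35 of 252 matches (13.9%, 9.87% to 18.8%), and the mean after shifting was 0.625. Summits close to each other can count the same palindrome, whereas a shifted match pairs summits over different sequence. The gap between observed and shifted counts is therefore partly built in, and no conclusion is drawn from it. DND-41 and HSB-2 had 17 such matches, KOPT-K1 and DND-41 had 6, KOPT-K1 and HSB-2 had 4, and the remaining pairs had 2 or 3. Between high and low lines, 9 of 401 matches had it at both summits (2.24%, 1.03% to 4.22%), with a mean of 0.25 after shifting, and between LOUCY and JURKAT 1 of 59 had, with the same mean. Palindrome summits were few in the low lists, 57 of 1910 in LOUCY and 188 of 5905 in JURKAT. These matches reuse the same lists in several pairs, and the difference between kinds of pair was not tested.

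Over all loci, 56 of 237 held the palindrome within 50 bp of a member summit (23.6%, 18.4% to 29.6%). It was present at 6 of the 8 loci of 3 lines (34.9% to 96.8%) and at 21.8% (16.7% to 27.8%) of the 229 loci of 2 lines. It was 26.5% (26 of 98) for DND-41 with HSB-2, 8.57% (6 of 70) for DND-41 with SUP-T13, and 8.82% (3 of 34) for HSB-2 with SUP-T13. Loci of KOPT-K1 held it at 8 of 14 with DND-41 (28.9% to 82.3%), 5 of 7 with SUP-T13 (29.04% to 96.3%), and 2 of 6 with HSB-2 (4.33% to 77.7%), in small counts whose intervals overlap that of DND-41 with HSB-2 (18.1% to 36.4%). By strength, 12 of the 20 strongest loci held it, 20 of the next 40, and 24 of the remaining 177. On chromosome 2 the palindrome was present at 28 of 70 loci (28.5% to 52.4%), and on chromosome 1 at 26 of 159 (16.4%).
Line by line, the palindrome lay at 14 of 32 shared summits in KOPT-K1 (43.8%, 26.4% to 62.3%), 36 of 189 in DND-41 (13.7% to 25.4%), 29 of 145 in HSB-2 (13.8% to 27.4%), and 9 of 116 in SUP-T13 (7.76%, 3.61% to 14.2%). Unshared summits held it in 3.79%, 10.0%, 6.92%, and 3.61%, in the same order of lines. Among all autosomal summits, the background in this order was 4.32%, 10.3%, 7.55%, and 3.72%. Windows 1000 bp to either side of the shared summits held it in 1.59%, 2.12%, 4.15%, and 1.73%. KOPT-K1 had the highest share and SUP-T13 the lowest, and in SUP-T13 the interval of the shared summits overlapped that of the unshared ones.
The mean share was 22.6% ± 15.1 (SD, n = 4) at shared and 6.09% ± 3.04 at unshared summits, a difference of 16.6 percentage points ± 16.03 that had the same sign in 4 of 4 lines (exact two-sided sign-flip permutation test over lines, p = 0.125, Benjamini-Hochberg adjusted p = 0.125 over 3 such tests). This p is the smallest that 4 lines allow, and lines that share a locus share its sequence, so they are not independent. When KOPT-K1 was left out and members were drawn anew from the other 3 lines, the difference was 7.16 percentage points.
Read the other way, 88 of the 1110 summits with the palindrome were shared (7.93%, 6.41% to 9.68%), and 394 of the 14644 without it (2.69%, 2.43% to 2.97%). The 88 summits lay at 56 loci and are not independent. The contrast was widest in KOPT-K1, with 13.5% against 0.782%, and also present in HSB-2, with 12.7% against 4.14%. It was smaller in DND-41, with 5.85% against 2.86%, and in SUP-T13, with 5.56% against 2.55%. In KOPT-K1, 35.8% of unshared summits lay on chromosomes 1 and 2, against 98.6% to 99.3% in the other lines. Its summits elsewhere thus had few possible partners, and its contrast was not computed for chromosomes 1 and 2 alone.

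**Figure D1:**
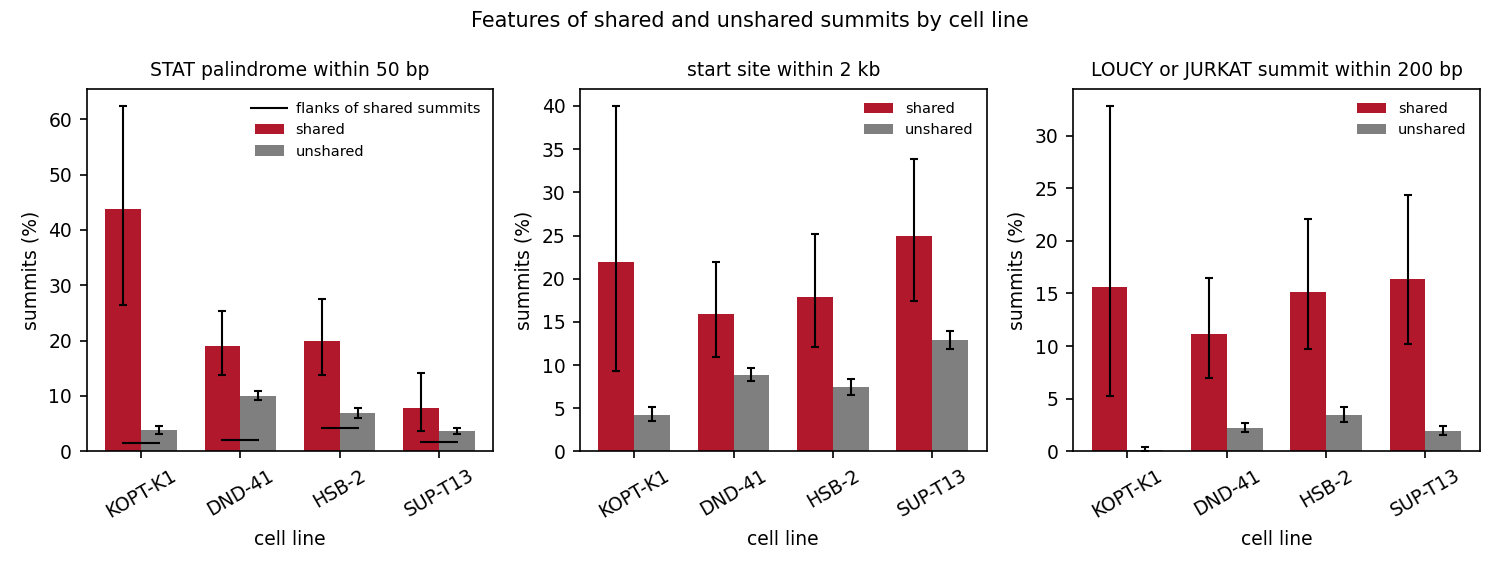
Share of shared (red) and unshared (grey) summits of each line, in percent with exact 95% binomial intervals, that had the STAT palindrome within 50 bp, a protein-coding start site within 2 kb, or a LOUCY or JURKAT summit within 200 bp. Short black lines in the left panel mark the palindrome share in windows 1000 bp from the shared summits. Shared summits are higher in all 4 lines and all 3 panels, with the widest intervals in KOPT-K1, which has 32 shared summits.

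Rearranged elements did not follow this pattern. With a spacer of 2 in place of 3 bases, TTCNNGAA lay at 1.66% of the 482 shared summits, 2.99% of the 15272 unshared summits, and 3.44% of the flanking windows. With a spacer of 4 bases the shares were 3.53%, 2.84%, and 4.48%, and for the reversed order GAANNNTTC they were 2.28%, 3.18%, and 3.23%. The intact TTCNNNGAA stood at 18.3%, 6.69%, and 2.60%, and at 3.64% of all windows of the same length along chromosomes 1 and 2. The narrower set TTCCNGGAA, TTCTNAGAA, TTCCNAGAA, and TTCTNGGAA lay at 15.4% of shared and 4.34% of unshared summits, and at 1.25% of the flanks. All motifs were read on both strands, and the narrower set is contained in the palindrome.
The core elements of RUNX, AP-1, E-box, and GATA factors differed less. The RUNX core TGTGGT lay at 9.54% (7.07% to 12.5%) of shared and 8.51% of unshared summits, the AP-1 element TGANTCA at 14 of 482 and 465 of 15272, the E-box CAGATG at 5.19% and 6.10%, and the GATA core AGATAA at 4.56% and 7.28%. The ETS core CCGGAAG lay at 1.24% (6 of 482, 0.458% to 2.69%) of shared summits, 0.380% of unshared summits, and 0 of 960 flanking windows. This is a larger ratio of shared to unshared than for the palindrome but rests on 6 summits at 5 loci.
At the 88 shared summits with the palindrome, its center was a median of 17.5 bp from the summit, and within 20 bp at 52 of them. Of 61 distinct palindrome sites under shared summits, 53 belonged to the narrower set, and the most frequent were TTCTCAGAA with 8 sites, TTCCAGGAA with 7, and TTCCTGGAA with 6.

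At loci of 2 lines, the rule itself keeps the summits within 200 bp of each other. Inside this limit, the median distance between them was 57 bp, at 46 bp with the palindrome and 69 bp without it. The palindrome was present at 41 of 137 loci whose summits lay 0 to 75 bp apart (29.9%, 22.4% to 38.3%), at 7 of 40 from 76 to 125 bp, and at 2 of 52 from 126 to 200 bp (3.85%, 0.469% to 13.2%). Counted over the 6 pairs without the limit of the rule, 179 summits had their nearest partner 0 to 99 bp away and 72 had it 100 to 199 bp away. The classes of 100 bp up to 499 bp then held 69 to 75 summits, and those from 500 bp to 2 kb held 42 to 67, with a mean of 51.7. The nearest class thus stood apart, and matches from 100 to 199 bp were no more frequent than those just outside the rule.

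The 8 loci with summits of 3 lines were led by *GAD1*, which encodes a glutamate decarboxylase that makes the transmitter GABA. In intron 6 of *GAD1*, 119 bp from an annotated start site of another transcript, the summits of KOPT-K1, DND-41, and HSB-2 lay between positions 170843896 and 170843945 of chromosome 2. Fold enrichment over input was 5.43 in DND-41, 2.85 in KOPT-K1, and 3.88 in HSB-2, and all 3 summits had the palindrome within 50 bp. SUP-T13 had an interval over this place, but the summit of that interval was 4467615 bp away.
In *PTPN4*, which encodes a protein tyrosine phosphatase, the summits of KOPT-K1, HSB-2, and SUP-T13 lay within 11 bp in intron 13, with fold enrichments of 4.47, 5.14, and 4.13. This locus had no DND-41 interval. A locus nearest to *RPRM*, a gene for a p53-responsive cell cycle inhibitor, lay 301775 bp from its start site and had fold enrichments of 2.93 in KOPT-K1, 4.98 in DND-41, and 4.96 in HSB-2. The same 3 lines shared a locus 153797 bp from *GALNT13*, at 2.77, 5.25, and 4.60, and in both places KOPT-K1 was the lowest.
DND-41, HSB-2, and SUP-T13 shared 3 loci. At the first exon of *MAIP1*, a gene for a mitochondrial protein, their fold enrichments were 4.32, 3.14, and 2.20, no palindrome was found, and LOUCY had a summit 19 bp away with a fold enrichment of 2.84. At 14615 bp from the nearest start site of *ALK*, a receptor tyrosine kinase gene, they were 3.74, 2.53, and 2.67 with the palindrome. At 24814 bp from *S100A6*, which encodes a calcium-binding protein, they were 2.79, 2.31, and 2.88 without it, and LOUCY had a summit with a fold enrichment of 1.85. KOPT-K1, DND-41, and SUP-T13 shared a weaker locus in intron 6 of *CLIP4*, at 2.07, 2.70, and 2.09. Of the 8 loci, 6 held the palindrome and 2 had a summit of a low pY-STAT5 line, both among those without it.

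Among the 20 strongest loci, 13 lay on chromosome 2. First was intron 3 of *CAMKMT*, the gene of a calmodulin methyltransferase, where the KOPT-K1 and SUP-T13 summits were 3 bp apart at 44674636 and 44674639. Fold enrichment was 6.35 and −log10 q 71.8 in KOPT-K1, and 4.74 and 70.0 in SUP-T13. DND-41 had no interval at this place, and HSB-2 had one whose summit was 1627490 bp away.
Besides *GAD1*, several of the next loci with a palindrome belonged to DND-41 and HSB-2 alone. In intron 10 of *FAM178B* the fold enrichments were 5.99 and 5.998, and 29749 bp from *FHL2*, which encodes a LIM domain protein, they were 6.02 and 5.29. In intron 2 of *MTHFD2*, an enzyme gene of mitochondrial folate metabolism, they were 4.75 and 4.20 at summits 39 bp from an annotated start site. In intron 3 of *LRP1B*, which encodes a receptor of the LDL receptor family, they were 4.60 and 3.89. HSB-2 and DND-41 were thus close to each other at these loci, while KOPT-K1 and SUP-T13 had intervals over all 4 places without a summit there. The sequences around the palindromes at *FAM178B* and *FHL2* were nearly alike, with 2 palindromes each, so these loci are not independent examples.
DND-41 reached 6.22 at a locus between genes that lay 386173 bp from the nearest start site, of *HNRNPA3*, a gene for an RNA-binding protein, where SUP-T13 had 2.97. KOPT-K1 had 3.58 and DND-41 2.69 in intron 3 of the lactase gene *LCT*. At *CARF*, which encodes a calcium-responsive transcription factor, DND-41 had 3.11 and HSB-2 3.06 in intron 2, and no palindrome was present.
Several of the strongest loci lay in repeated sequence. At the locus nearest to *H3-7* that ranked highest, the central 31 bases occurred up to 19 times in the reference, and up to 76 times at the other one. KOPT-K1 and DND-41 shared both, and JURKAT had a summit at both, with fold enrichments of 1.83 and 2.44. At the palindrome loci of *LCT* and *FHL2* the central 31 bases occurred up to 15 and 2 times. The locus nearest to *EMB* on chromosome 5 held the palindrome and had up to 634 copies, and LOUCY had a summit there with a fold enrichment of 5.67, above the 4.39 of KOPT-K1 and the 2.96 of DND-41. At the locus nearest to *ZNF37A* on chromosome 10 the central 31 bases had 1 copy, a count that misses similar but not identical repeats. The summits there were 1 bp apart in KOPT-K1 and HSB-2, at fold enrichments of 6.32 and 4.36, and LOUCY had a summit at 3.69. At the *CCDC200* locus on chromosome 17, DND-41 had 3.72, SUP-T13 4.19, and JURKAT 5.12. The locus nearest to *FAM72C* had summits of HSB-2 and SUP-T13 and of both low lines. On chromosome 16, KOPT-K1 and HSB-2 had 2.65 and 1.77 near an unnamed protein-coding gene, with no low-line interval. The central 31 bases there occurred up to 2 times, and a run of 20 bases recurred at the second locus nearest to *H3-7*. In all, 7 of the 20 strongest loci had a LOUCY or JURKAT summit within 200 bp.

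**Figure D2:**
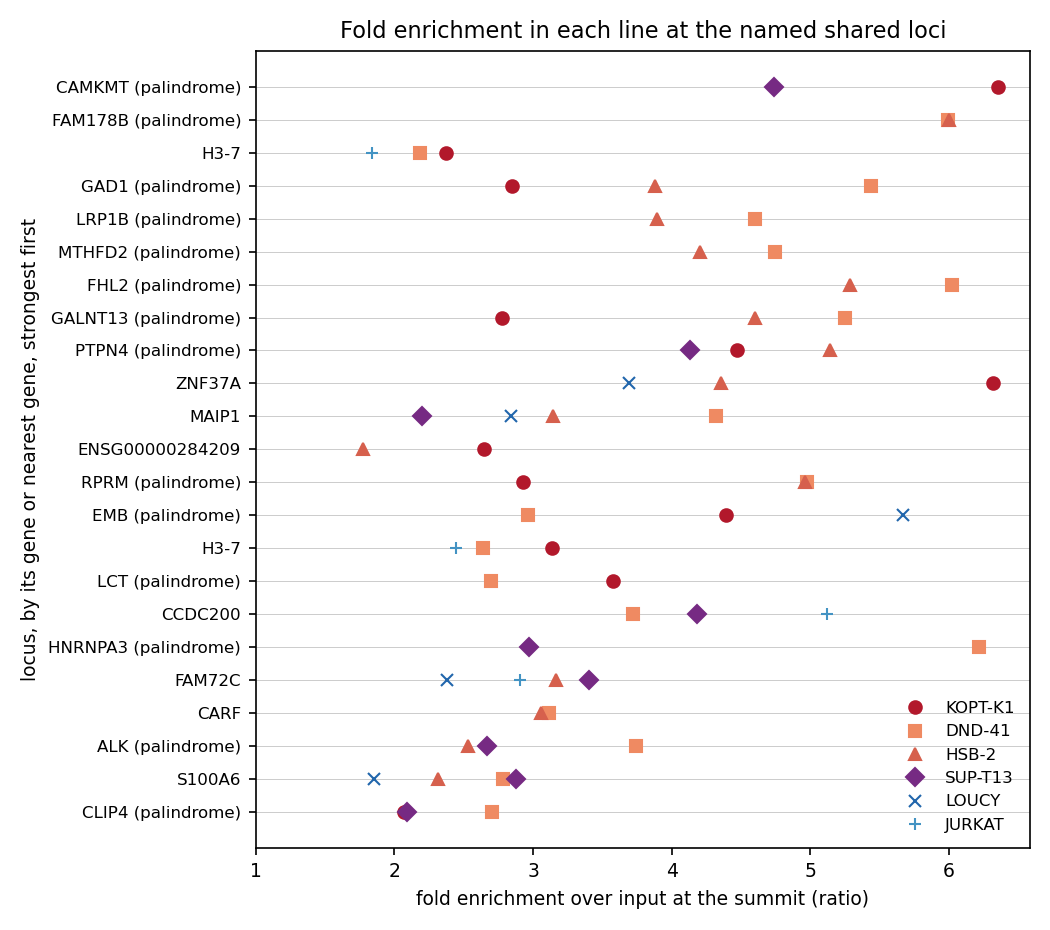
Fold enrichment over input (ratio, from the deposited lists) at the summit of each line for the 23 named loci, strongest at the top; a row is named by the gene that holds the locus or has the nearest start site, and a missing symbol means no summit within reach. Palindrome loci such as *LRP1B* and *MTHFD2* carry high pY-STAT5 symbols alone, while LOUCY or JURKAT symbols appear mainly at loci without the palindrome, with *EMB* as the exception.

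Shared summits had higher values than unshared ones in the same lists, which is given without a test because the rule and these values come from the same peak calls. The median fold enrichment was 2.63 against 2.08 in KOPT-K1, 2.19 against 2.01 in SUP-T13, 2.44 against 2.26 in DND-41, and 2.06 against 1.88 in HSB-2. The median −log10 q was 6.13 against 2.15, 3.42 against 2.40, 3.66 against 2.78, and 3.84 against 2.57, in the same order. The ranges overlapped widely, and the highest fold enrichment of KOPT-K1, 12.17, belonged to an unshared summit.
Among shared summits, those with the palindrome were the stronger ones, with a median fold enrichment of 2.97 against 2.16 in SUP-T13, 2.89 against 2.37 in KOPT-K1, 2.99 against 2.37 in DND-41, and 2.52 against 2.05 in HSB-2. Shared summits also lay in longer intervals in KOPT-K1, with a median of 24764 bp against 6105 bp, and in HSB-2, with 21312 bp against 7557 bp. Intervals over 1 Mb held 11 shared summits in HSB-2, 8 of them with the palindrome, 7 in KOPT-K1, 5 of them with it, and 4 to 6 in the other lines. Interval length and summit strength were not separated here.

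Relative to genes, 45 of 237 loci (14.2% to 24.6%) lay within 2 kb of a protein-coding start site, 3 in other exons, 78 in introns (32.9%, 27.0% to 39.3%), and 111 between genes (46.8%, 40.3% to 53.4%). Shared summits were near start sites in 25.0% of SUP-T13, 21.9% of KOPT-K1, 15.9% of DND-41, and 17.9% of HSB-2 cases, and unshared summits in 12.8%, 4.26%, 8.86%, and 7.41%. The mean difference was 11.8 percentage points ± 4.42 (SD, n = 4) and positive in 4 of 4 lines (exact two-sided sign-flip permutation test, p = 0.125, adjusted p = 0.125). With members likewise drawn anew, it was 23.8 when DND-41 was left out and 6.26 when SUP-T13 was left out, so both the lines and the shared set changed. In KOPT-K1, 84.4% of shared and 35.8% of unshared summits lay on chromosomes 1 and 2, so its difference was not separated from chromosome.
The palindrome lay at 6 of 45 promoter loci (13.3%, 5.05% to 26.8%), 20 of 78 intronic loci (25.6%, 16.4% to 36.8%), and 29 of 111 loci between genes (26.1%, 18.3% to 35.3%). The 6 promoter loci were those of *CAMKMT*, *GAD1*, *MTHFD2*, the zinc transporter gene *SLC30A6*, *ATRAID*, and the sodium channel gene *SCN9A*, of which the last 3 were named after their values were seen. The mean GC content within 50 bp of the summits was 60.4% at promoter loci, 43.96% at intronic loci, and 42.0% between genes. Intervals of these shares overlap, and the difference between places was not tested.

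Of the gene lists considered, few genes held a shared summit in the body or within 2 kb of a start site. It was 2 of 47 T-lineage and leukemia genes, and 0 of 17 autosomal STAT5 targets, 0 of 43 TCR pathway genes, and 0 of 20 survival and cell cycle genes. Chromosomes 1 and 2, which held most loci, had 2 of the 17, 19 of the 43, and 16 of the 20. Of the 17 STAT5 targets, 0 held any summit, shared or not, so their count says nothing about sharing. The counts of 0 were not tested against the background. Of all autosomal protein-coding genes, 125 of 19111 held one. On chromosomes 1 and 2, 3 of 77 listed genes had a shared summit (3.90%, 0.811% to 10.97%), beside 124 of all 3308 protein-coding genes there (3.75%, 3.13% to 4.45%), so the lists lay at the background.
*CD58*, which encodes the ligand of the T cell adhesion protein CD2, had a locus of DND-41 (fold enrichment 2.08) and SUP-T13 (2.17) in intron 1, where the central 31 bases had 552 and 214 copies in the reference. *IKZF2*, which encodes the zinc finger protein Helios, had one of SUP-T13 (2.14) and HSB-2 (1.51) in intron 4, with the summits 171 bp apart. Neither gene had a palindrome at the shared summits.

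The low pY-STAT5 lines covered most of these places by interval but few by summit. LOUCY had an interval over 189 of 237 loci (79.7%, 74.1% to 84.7%) and JURKAT over 140 (59.1%, 52.5% to 65.4%), and 35 loci lay in no interval of either. These intervals are long, and those of LOUCY took up 50.7% of chromosome 1 and 81.3% of chromosome 2, and those of JURKAT 22.9% and 80.3%. On chromosome 2, 69 of 70 loci lay in a LOUCY interval and 67 in a JURKAT interval, and on chromosome 1 it was 117 and 69 of 159. An interval over a locus therefore says little about enrichment at that place.
By summit, LOUCY reached 19 loci (8.02%) and JURKAT 20 (8.44%), and 5 had both. Of the 482 members, 39 had a LOUCY summit within 200 bp, against 0 to 3 when the members were shifted, and 37 had a JURKAT summit, against 4 to 12. Shared summits had a low-line summit more often than unshared ones, at 16.4% against 1.93% in SUP-T13, 15.6% against 0.169% in KOPT-K1, 11.1% against 2.25% in DND-41, and 15.2% against 3.46% in HSB-2. The mean difference was 12.6 percentage points ± 2.96 (SD, n = 4), positive in 4 of 4 lines (exact two-sided sign-flip permutation test, p = 0.125, adjusted p = 0.125). It was 19.3 when DND-41 was left out and members were drawn anew. Limited to summits whose central 31 bases are unique in the reference, a setting chosen after seeing the data, it was 7.10 and positive in 3 of 4 lines. In KOPT-K1, 84.4% of shared and 35.8% of unshared summits lay on chromosomes 1 and 2. LOUCY had 1655 and 242 of its 1910 summits there, and JURKAT 4366 and 470 of 5905. The KOPT-K1 contrast was therefore not separated from chromosome, and chromosomes 1 and 2 alone were not run.
Palindrome loci differed here. A low-line summit lay at 1 of 56 loci with the palindrome (1.79%, 0.0452% to 9.55%), the repeated *EMB* locus, and at 33 of 181 without it (18.2%, 12.9% to 24.6%). At the same time, 49 of the 56 lay inside a LOUCY interval and 38 inside a JURKAT interval. Among the 34 loci with a low-line summit, 11 lay within 2 kb of a start site (32.4%, 17.4% to 50.5%) and 19 had unique central sequence at every member summit (55.9%, 37.9% to 72.8%). Among the other 203 loci it was 34 (16.7%, 11.9% to 22.6%) and 150 (73.9%, 67.3% to 79.8%). Loci in common with low pY-STAT5 lines thus lay more often in promoters and in repeated sequence, in counts that were not tested.
The high pY-STAT5 lines themselves differed in how often they had an interval without a summit at loci they did not share. SUP-T13 covered 112 of the 121 loci without its own member summit, HSB-2 35 of 92, DND-41 7 of 48, and KOPT-K1 16 of 205. Counting intervals, 26 loci were covered in all 4 lines and 126 in 3.

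**Figure D3:**
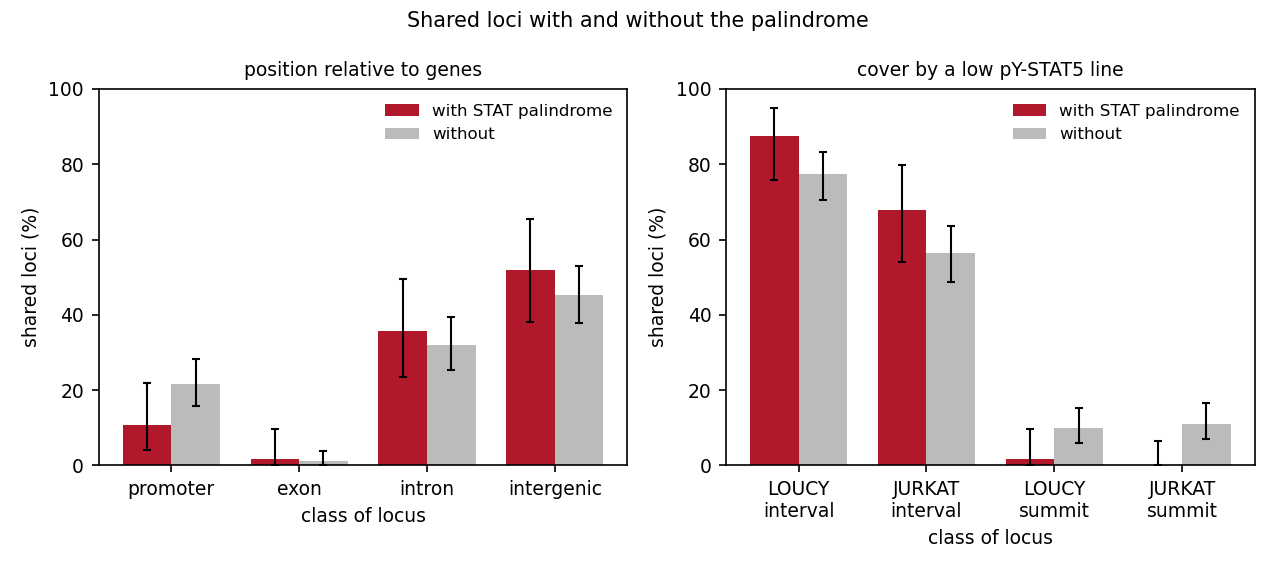
Share of the 56 loci with the STAT palindrome (red) and the 181 without it (grey), in percent with exact 95% binomial intervals, by position relative to protein-coding genes (left) and by cover with a LOUCY or JURKAT interval or a summit within 200 bp (right). Intervals of the low lines cover both kinds of loci, whereas their summits reach 1 of the 56 palindrome loci and 33 of the 181 others.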

How the data were processed

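STAT5B ChIP-Seq peak lists of 6 T-ALL lines were used, 1 library per line. According to the submitters' processing notes and the paper's methods, the authors used BWA 0.7.15-r1140 for alignment to GRCh38, SAMtools 1.4 for read handling, and MACS2 for peaks, with the matching input as control. Caller options are not given in the sources used here. The deposited fold enrichment is a linear ratio over input, and the deposited −log10 p and −log10 q come from the authors' peak caller. The deposited summit offset was added to the interval start, and positions count from 1.

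Members and lists were chosen with earlier results of these data known. Loci are members joined by gaps of at most 200 bp. Genes are the protein-coding genes of GENCODE version 44, with exons and introns numbered along canonical transcripts. Named were loci of 3 or more lines, the 20 strongest loci by second highest −log10 q, and listed genes with a shared summit. Results for some items are not reported here. Fixed shifts stand in for random ones. Groups were compared within lines by exact sign-flip permutation tests with Benjamini-Hochberg adjustment over the 3 tests run. A planned test of repeat masking was void, because the reference carries no masking, and 31-base copy number was counted instead, a choice made after seeing the data. Alternatives covered distances, thresholds, interval length, motif, and each line left out. Functions were tested on simulated data. Python 3.11.15, NumPy 2.4.6, SciPy 1.17.1, pandas 2.3.3, pysam 0.24.0, matplotlib 3.10.9, and samtools 1.23.1 were used.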

Additional observations from a re-analysis of the deposited data

Results flagged for a closer look

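A check for single lines far from the other 3 was run on 15 measures of the shared summits over the 4 high pY-STAT5 lines, and 2 measures stood out, where chance gives about 1 in 20. KOPT-K1 had a median −log10 q of 6.13 at its shared summits, against 3.42 to 3.84 in the other lines. In KOPT-K1, 84.4% of the shared summits lay on chromosomes 1 and 2, against 96.6% to 97.9% in the others, and its unshared summits lay there in 35.8%. KOPT-K1 had the fewest shared summits, 32, so its values rest on the smallest number.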

How the results depend on the processing

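The number of shared summits, 482, rose to 900 within 500 bp, and fell to 112 for −log10 q from 5 upward and to 96 among intervals no longer than 5 kb, which keep fewer peaks by construction. Leaving out each line, with members drawn anew from the others, gave 109 to 423, with 109 without DND-41, 199 without HSB-2, and 255 without SUP-T13. The share of loci with the palindrome, 23.6%, was 30.4% within 100 bp, 17.3% within 500 bp, 54.7% for −log10 q from 5 upward, and 29.96% in a motif window of 100 bp, and 19.5% to 33.3% with each line left out. A wider motif window covers more sequence by construction, and for the other changes the cause was not tested. The 3 differences between shared and unshared summits kept their sign under all 20 alternatives run, 3 of them limited to unique sequence and chosen after seeing the data. With 4 lines none can reach a p under 0.125, so this says nothing of the test. The masking alternatives were not run. Pairing was not available, since the replicate number of a sample just counts through the cell lines.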

Other observations

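Some shared loci resembled each other in sequence. Within 50 bp of the member summits, 51 of 237 loci had a run of 20 bases in common with another locus on either strand, 7 of the 56 with the palindrome and 44 of the 181 without it. Loci within 2 kb of start sites of *PPIAL4H*, *PPIAL4C*, and *PPIAL4G*, a family of cyclophilin-like genes on chromosome 1, shared runs with each other or with a locus near *PPIAL4A*, and each had summits of DND-41 and HSB-2. These loci were named after their values were seen.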
